A study of Mus musculus with 4 samples.

Results

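The T cell receptor complex and its proximal signalling machinery were examined as 30 named genes in RNA of mouse lamina propria mononuclear cells, the leukocyte-enriched cells of the connective tissue under the gut epithelium. All 30 were found among the 48526 gene identifiers of the deposited table, each by its symbol, and all 30 passed the minimum level for testing. In 2 samples, called DKO here, the mice had received CD4 T cells that lacked the repressors Hobit and Blimp-1, which act in tissue-resident lymphocytes, and colitis was mild by the labels. In the other 2 samples, called WT, the mice had received wild-type CD4 T cells, and colitis was pronounced by the labels. Only the donor cells carried the knockout, while other cells of the lamina propria were sequenced along with them. The strain and age of the recipients, the time after transfer, the alleles of the knockout and any pooling of animals are not given in the labels. Each group had 2 biological replicates, not stated to be separate animals, and the p-values cover no more than the spread between these samples.

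The receptor of most T cells pairs an alpha with a beta chain, which bind antigen but carry no signalling domain. The signal passes to the CD3 gamma, delta and epsilon chains and the zeta chain, whose tyrosine motifs are phosphorylated by Lck or Fyn and then bound by Zap70. Zap70 phosphorylates the adaptors LAT and SLP-76, on which phospholipase C gamma 1 and Vav1 assemble. In transfer colitis the donor CD4 cells recognise antigens of the gut through this receptor and drive the inflammation.

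The level of each gene is given as rlog, a log2 expression value that pulls small or noisy differences towards 0, and a difference of 1 is a 2-fold change. The depth of each sample is unknown. Per length (rlog minus log2 of the exon length in kilobases), Cd3d averaged 10.53 and Cd3g 10.29 over the 4 samples, and Cd3e 8.79 and Cd247 8.69. The means of each pair differed by less than the range of either gene over the samples, which does not compare the genes within a sample. Defining T cell genes were above the minimum for testing in all samples. Among B cell genes Pax5 was listed at 0 and Ms4a1 and Cd79a were below 0 on the rlog scale in all 4 samples. Cd79b stood at 5.77 and 5.76 in DKO and at 5.73 and 5.71 in WT, and Cd22 at 6.07 and 6.36 in DKO and at 6.44 and 6.34 in WT, above the minimum for testing.

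Transcripts of the receptor machinery differed little between DKO and WT samples on the rlog scale, and most differences were below 0. With 2 samples a group, equal levels were not shown. Only Trat1, which encodes the T cell receptor interacting adaptor TRIM, passed the test, and it was lower in DKO. In limma with Benjamini-Hochberg adjustment over the 13528 genes tested, 1 of the 30 genes was lower and 0 were higher in DKO at an adjusted p under 0.05. Over all genes tested 4.85% were lower and 9.92% higher. At an unadjusted p under 0.05, 7 of the 30 were lower and 0 higher, against 12.1% and 14.4% of all genes. The differences between groups ran from -0.35 for Trbc2 to 0.17 for Txk, with a median of -0.10, and the median over all genes tested was -0.022. The difference was below 0 for 25 of the 30, as it was for 55.3% of all genes, but for 17 of the 30 after quantile normalization (median -0.040, against -0.036 over all genes). No interval of a single gene reached a 2-fold change: the lowest bound of the 30 intervals (95%, limma) was -0.65 and the highest 0.41.

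**Figure D1:**
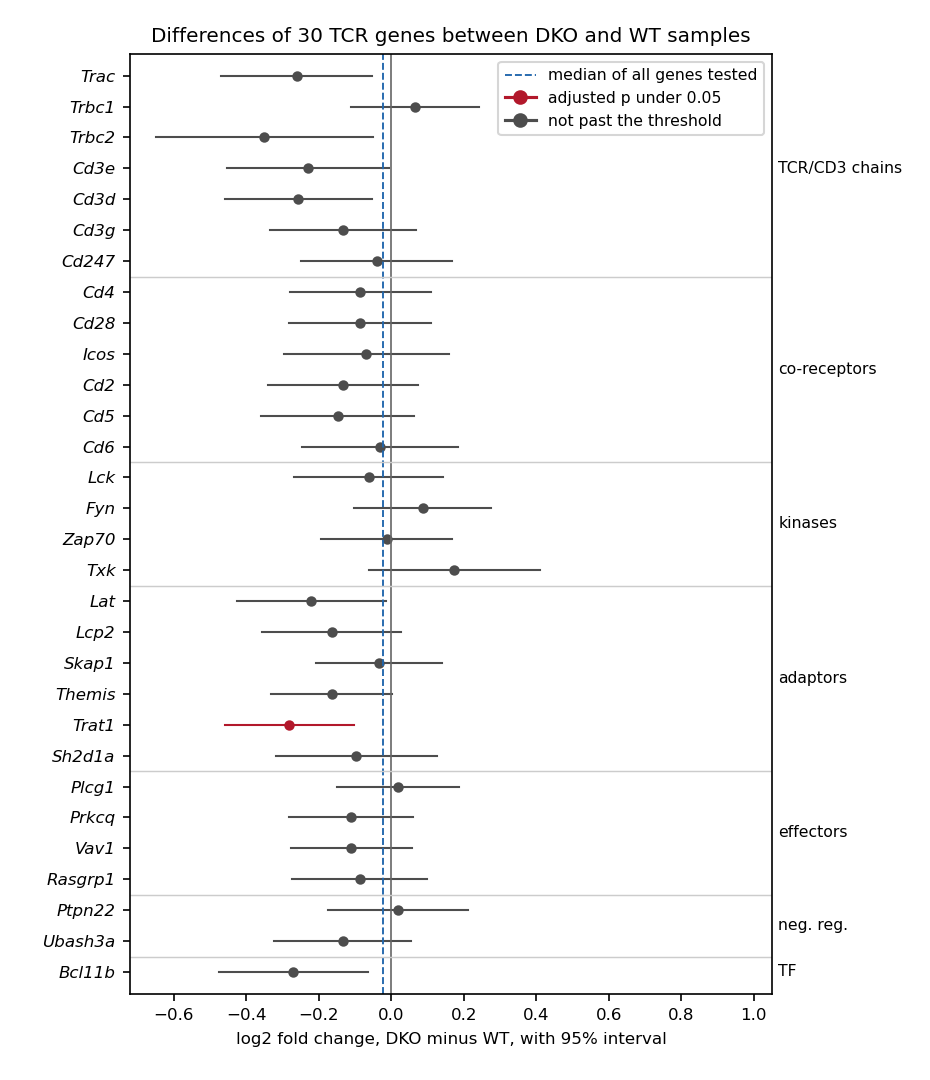
Log2 fold change of each gene (DKO minus WT, points) with its 95% interval from limma (bars), grouped by role, and the median of all genes tested (dashed line, -0.022). Trat1 in red passed the threshold at -0.28, and the other intervals are in grey. Those of Trac, Trbc2, Cd3e, Cd3d, Lat and Bcl11b also lay below 0.

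The constant regions of the receptor chains gave unequal values. Trac, the alpha chain constant region (ENSMUSG00000076928, build GRCm38, chromosome 14, 54220521 to 54224206), stood at an rlog of 11.63 and 11.85 in DKO and of 11.95 and 12.05 in WT. Trbc2, the second beta chain constant region (chromosome 6, 41546730 to 41548352), was at 12.06 and 12.51 in DKO and at 12.53 and 12.75 in WT. Both genes were lower in both DKO samples than in either WT sample, with DKO replicate 1 the lowest. The log2 fold change was -0.26 for Trac (SE 0.095, adjusted p = 0.0986 in limma) and -0.35 for Trbc2 (SE 0.136, adjusted p = 0.121). Neither passed the threshold.

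Trbc1, the first beta chain constant region (chromosome 6, 41538218 to 41539881), stood at 11.58 and 11.66 in DKO and at 11.56 and 11.55 in WT. It was the only member that was higher in both DKO samples than in either WT sample, by 0.066 (SE 0.0798, adjusted p = 0.668 in limma). The rlog of Trbc2 exceeded that of Trbc1 by 0.49 and 0.85 in DKO and by 0.97 and 1.20 in WT. This gap was smaller in both DKO samples, by 0.42, but 2 against 2 samples allow no p under 0.333 in a two-sided exact permutation test, which was the p obtained. The gap was chosen after its values were seen. The genes lie 6849 bases apart and share runs of up to 259 identical bases in their transcripts, so reads may have been assigned to either or left out, and the split between them is uncertain.

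The CD3 genes lie together on chromosome 9, where the starts of Cd3g and Cd3d are 1355 bases apart on opposite strands. Cd3d, the delta chain (ENSMUSG00000032094, 44981786 to 44987339), had values of 11.20 and 11.32 in DKO and 11.42 and 11.62 in WT. Cd3e, the epsilon chain (44998740 to 45009627), had 10.59 and 10.83 in DKO and 10.84 and 11.04 in WT. For both, the groups did not overlap, although Cd3e in DKO replicate 2 stood only just under WT replicate 1. The log2 fold change was -0.26 for Cd3d (SE 0.0915, adjusted p = 0.0932 in limma) and -0.23 for Cd3e (SE 0.101, adjusted p = 0.175). In fits without 1 sample Cd3d lay between -0.35 (without WT replicate 1) and -0.16 (without WT replicate 2).

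Cd3g, the gamma chain (44969572 to 44980431), stood at 11.87 and 11.99 in DKO and at 11.98 and 12.15 in WT, with overlapping groups and a difference of -0.13 (95% interval -0.34 to 0.068). Cd247, the zeta chain (chromosome 1, 165788681 to 165877277), stood at 11.02 and 11.15 in DKO and at 11.01 and 11.24 in WT. Its difference was -0.040 (95% interval -0.25 to 0.17). Of its annotated exon bases 56.4% are shared with Pou2f1 on the opposite strand. The libraries were stranded, but whether counting used strand was not stated, so its level is uncertain. In all, 0 of the 7 receptor and CD3 genes passed in limma, while 4.85% of all genes tested were lower and 9.92% higher. At an unadjusted p under 0.05, 4 were lower and 0 higher, against 12.1% and 14.4% of all genes. Both DKO samples lay below both WT samples for 4 of the 7 and above them for 1, against 30.3% and 25.0%.

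**Figure D2:**
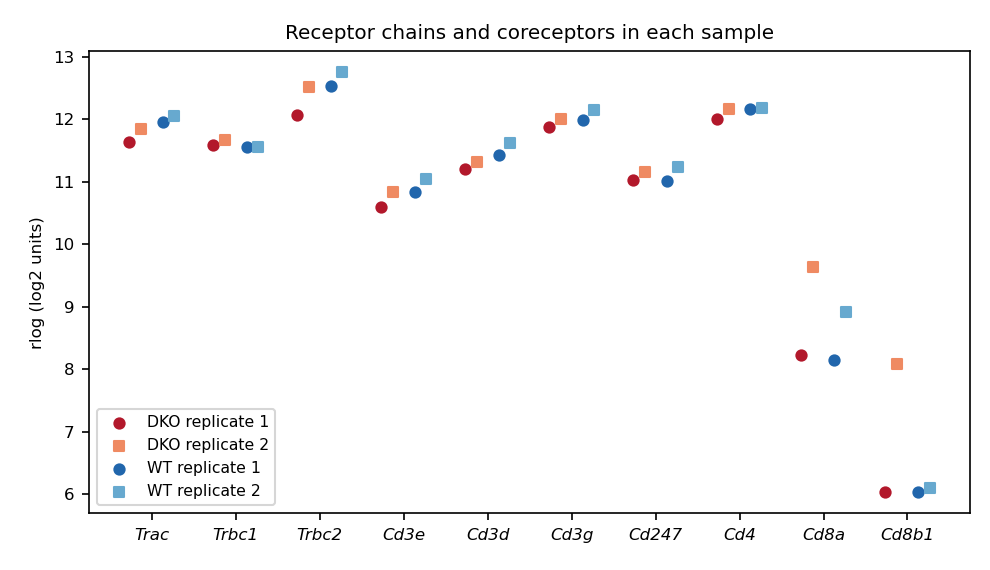
Rlog values of the receptor chains, Cd4 and the CD8 coreceptor genes in each sample, with DKO samples to the left of WT samples for each gene. Trac, Trbc2, Cd3e and Cd3d were lowest in DKO replicate 1, and Cd8b1 stood at 8.09 in DKO replicate 2 and at 6.04 to 6.10 in the other samples.

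Of the 6 receptors that act beside the T cell receptor, 0 passed in limma, and 0 had an unadjusted p under 0.05. Over all genes 4.85% passed as lower and 9.92% as higher, and 12.1% and 14.4% at the unadjusted p. Cd4, the coreceptor for MHC class II, had values of 12.00 and 12.16 in DKO and 12.16 and 12.17 in WT, a difference of -0.085 (95% interval -0.28 to 0.11). The costimulatory receptor Cd28 had 12.24 and 12.08 in DKO and 12.24 and 12.25 in WT. Icos, an inducible costimulatory receptor, had 13.14 and 13.34 in DKO and 13.27 and 13.36 in WT. The groups overlapped for all 6 genes, while over all genes 30.3% lay lower and 25.0% higher in DKO without overlap. Differences were -0.13 for Cd2, an adhesion receptor, -0.15 for Cd5, a scavenger receptor-like protein that dampens receptor signals, and -0.031 for its relative Cd6. The intervals of the 6 genes ran between -0.36 and 0.18, and 5 of the 6 genes were lowest in DKO replicate 1.

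Of the 4 tyrosine kinases 0 passed in limma, also at an unadjusted p under 0.05. Over all genes 4.85% were lower and 9.92% higher, and 12.1% and 14.4% at the unadjusted p. Lck, which phosphorylates the CD3 motifs, had values of 12.58 and 12.75 in DKO and 12.74 and 12.71 in WT. Zap70, which binds the phosphorylated motifs, had 10.97 and 11.10 in DKO and 11.04 and 11.06 in WT. Their differences were -0.062 (95% interval -0.27 to 0.14) and -0.013 (95% interval -0.19 to 0.17). The Src family kinase Fyn differed by 0.086 (95% interval -0.10 to 0.28). Txk, a Tec family kinase also expressed by natural killer cells, was at 9.78 and 9.45 in DKO and at 9.40 and 9.48 in WT. Its difference of 0.17 (adjusted p = 0.34 in limma) came with a high value in DKO replicate 1 alone, and was 0.011 without that sample.

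Among the 6 adaptors Trat1 was lower in DKO and the other 5 did not pass, while 4.85% of all genes were lower and 9.92% higher. At an unadjusted p under 0.05 in limma, 2 of the 6 were lower and 0 higher, against 12.1% and 14.4% of all genes. Trat1 (ENSMUSG00000030775, chromosome 16, 48730774 to 48772021) had values of 9.91 and 9.90 in DKO and 10.12 and 10.25 in WT. The DKO samples were nearly equal and both lay below the WT samples. The log2 fold change was -0.28 (SE 0.0812, adjusted p = 0.04 in limma), a DKO level of 0.823 times that in WT. The call was lost without WT replicate 1 (-0.34, adjusted p = 0.0727) and without WT replicate 2 (-0.22, adjusted p = 0.375), and also with no filter on low values (adjusted p = 0.163), with no variance trend (adjusted p = 0.0854) and with quantile normalization (adjusted p = 0.0952).

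Lat, the membrane scaffold phosphorylated by Zap70, was at 12.40 and 12.56 in DKO and at 12.65 and 12.75 in WT. Themis, which tunes receptor signals in developing T cells, was at 10.29 in both DKO samples and at 10.47 and 10.45 in WT. Lcp2, which encodes SLP-76 and is also expressed by myeloid cells, was at 12.69 and 12.63 in DKO and at 12.84 and 12.81 in WT. In each of these the DKO samples lay below both WT samples, as in 30.3% of all genes tested. Adjusted p-values in limma were 0.157 for Lat, 0.198 for Themis and 0.266 for Lcp2. Skap1, an adaptor of integrin activation, differed by -0.034. Sh2d1a, which encodes SAP and couples SLAM receptors to Fyn, differed by -0.096, with 26.6% of its exon bases shared with Tenm1 on the opposite strand.

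Of the 4 effectors and 2 negative regulators 0 passed in limma, also at an unadjusted p under 0.05. The shares of all genes were 4.85% lower and 9.92% higher, and 12.1% and 14.4% at the unadjusted p. Plcg1, the phospholipase that starts the calcium signal, lay within 0.050 over all 4 samples, and differed by 0.018 (95% interval -0.15 to 0.19). The exchange factor Vav1 was at 10.54 in both DKO samples and at 10.65 in both WT samples, a difference of -0.11 (SE 0.0758, adjusted p = 0.404 in limma). Prkcq, the kinase that links the receptor to NF-kappaB, showed the same difference of -0.11, and Rasgrp1, which activates Ras, one of -0.087. The phosphatase Ptpn22 differed by 0.019 (95% interval -0.17 to 0.21). Ubash3a, which dampens receptor signalling, had 9.88 and 10.06 in DKO and 10.08 and 10.13 in WT, a difference of -0.13. Bcl11b, the transcription factor that commits cells to the T lineage (ENSMUSG00000048251, chromosome 12, 107910403 to 108003602), was at 9.47 and 9.68 in DKO and at 9.78 and 9.90 in WT. Its groups did not overlap, and its difference of -0.27 (SE 0.0929, adjusted p = 0.0819 in limma) missed the threshold. It lay between -0.37 (without DKO replicate 2) and -0.17 (without DKO replicate 1) in fits without 1 sample.

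**Figure D3:**
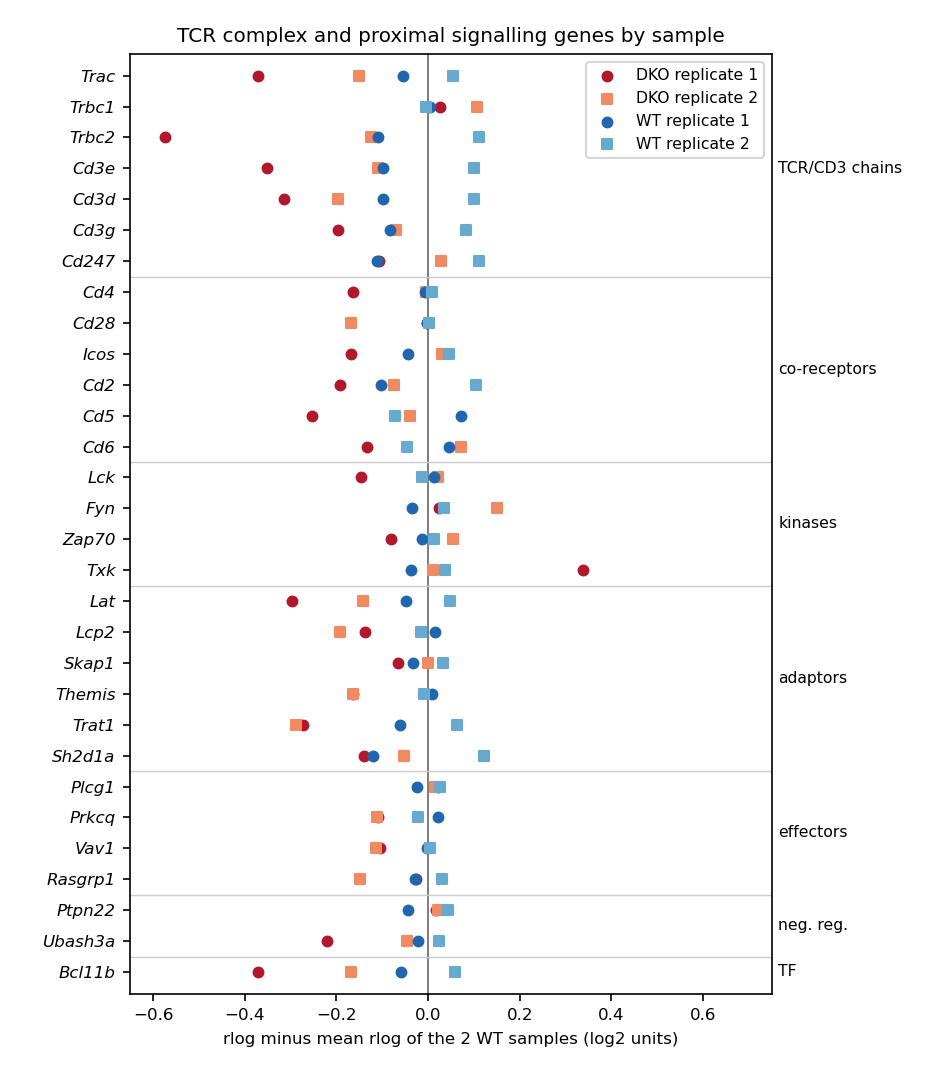
Rlog of each of the 30 genes in each sample, minus the mean of the WT samples for that gene, grouped by role. DKO replicate 1 (dark red circles) was the lowest sample for 18 genes, and reached -0.57 for Trbc2.

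The DKO samples differed from each other in these genes. DKO replicate 1 was the lowest of the 4 samples for 18 of the 30 genes, DKO replicate 2 for 6, WT replicate 1 for 5 and WT replicate 2 for 1. Over all genes tested these shares were 33.0%, 23.9%, 18.2% and 24.9%, in the same order. The mean rlog over the 30 genes was 11.27 and 11.36 in DKO and 11.39 and 11.46 in WT, and over the 7 receptor and CD3 genes 11.42 and 11.62 in DKO and 11.61 and 11.77 in WT. In that class DKO replicate 2 stood level with WT replicate 1. Both DKO samples lay below both WT samples for 12 of the 30 genes and above them for 1, against 30.3% and 25.0% of all genes tested. In bulk RNA, fewer T cells and less RNA per T cell cannot be told apart.

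DKO replicate 2 also carried more CD8 coreceptor RNA, beside its higher values for the receptor chains. Cd8b1, the CD8 beta chain, was at 6.04 and 8.09 in DKO and at 6.04 and 6.10 in WT. Cd8a, the CD8 alpha chain, was at 8.23 and 9.64 in DKO and at 8.15 and 8.92 in WT. Trdc, the constant region of the delta chain of gamma-delta T cells, was at 6.24 and 7.00 in DKO and at 6.26 and 6.19 in WT. Trdc did not pass (adjusted p = 0.225 in limma). Sox13, a transcription factor of gamma-delta T cells, was at 6.81 and 6.88 in DKO and at 6.34 and 6.14 in WT. Unlike Trdc it was higher in both DKO samples, by 0.61 (adjusted p = 0.00414 in limma). So were all 6 genes listed for endothelium and all 8 for fibroblasts and smooth muscle, and 25.0% of all genes tested. Which cells carried the Sox13 RNA was not tested. Trgc1, Trgc2 and Trgc4, also listed for gamma-delta T cells, were not found by symbol. The part of CD8 and gamma-delta T cells in the levels of the receptor genes was not tested.

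Without DKO replicate 2, 7 of the 30 genes were lower in DKO (Trac, Trbc2, Cd3e, Cd3d, Lat, Trat1 and Bcl11b) and Txk was higher, while 9.03% of all genes were lower and 12.3% higher in that fit. Trbc2 then differed by -0.57 (adjusted p = 9.99e-05 in limma), Trac by -0.37 (adjusted p = 0.00443) and Cd3e by -0.35 (adjusted p = 0.00796). Without DKO replicate 1 the differences were -0.13 for Trbc2, -0.15 for Trac and -0.11 for Cd3e, and of the 30 genes Trat1 was lower and 0 were higher, against 5.46% and 9.47% of all genes. Without WT replicate 1 they were -0.46, -0.32 and -0.33, and without WT replicate 2 -0.24, -0.21 and -0.13, in that order. Such fits take the spread from the group that kept both samples and apply it to the single sample left in the other.

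**Figure D4:**
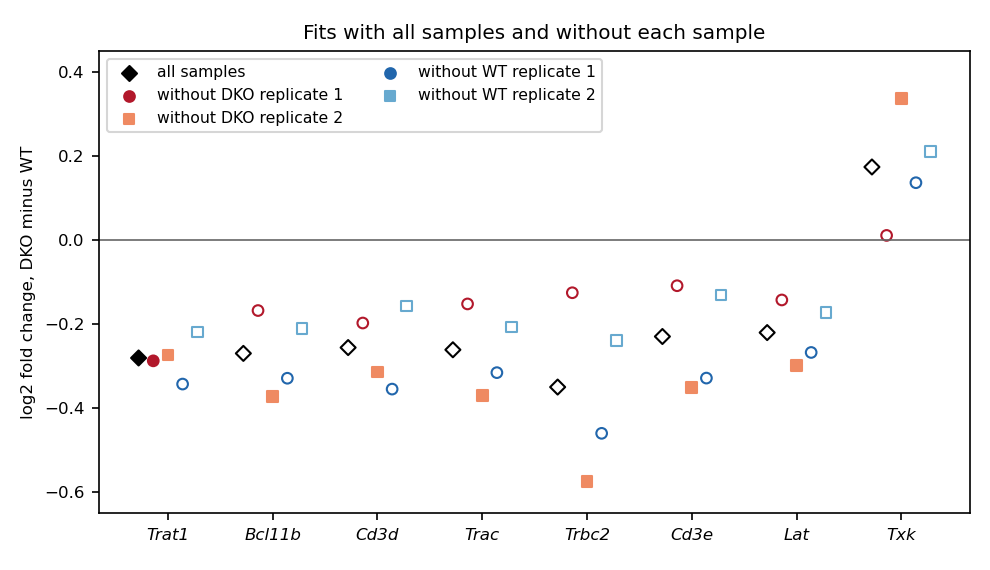
Log2 fold changes (DKO minus WT) of the 8 genes called in any of the fits shown, with all samples (diamonds) and without each sample in turn. Filled symbols had an adjusted p under 0.05 in limma. Trat1 was called with all samples and without either DKO sample, and the other 7 genes only without DKO replicate 2.

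Marker genes of other cells differed between the same samples. Lower and higher stand here for an adjusted p under 0.05 in limma, with 4.85% and 9.92% of all genes as background. Summed over each list on the linear scale, the 8 neutrophil genes came to 25468 and 17756 in DKO and to 53920 and 57895 in WT, and all 8 were lower. The 6 macrophage genes came to 35525 and 38139 in DKO and to 52408 and 53401 in WT, and all 6 were lower. The 8 genes of fibroblasts and smooth muscle came to 53171 and 47340 in DKO and to 25960 and 23526 in WT. All 8 of these were higher, as were all 6 genes of the endothelium, which came to 4543 and 4819 in DKO and to 2643 and 2326 in WT. The 30 receptor and signalling genes came to 95623 and 103352 in DKO and to 104675 and 109338 in WT.

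Natural killer cells, which also express Cd247, Lck, Zap70, Fyn and Txk, had 6 genes measured, with sums of 1768 and 1465 in DKO and of 1253 and 1347 in WT. Of these Klre1 (0.40) and Klri2 (0.54) were higher and 0 were lower in limma, with 9.92% of all genes higher and 4.85% lower. At an unadjusted p under 0.05, 3 were higher and 0 lower, against 14.4% and 12.1% of all genes. Of 5 epithelial genes 0 passed, with sums of 10379 and 9643 in DKO and of 9676 and 10403 in WT. At an unadjusted p under 0.05 in limma, 1 was higher and 0 lower, with the same shares of all genes as background. The 6 B cell genes came to 123 and 138 in DKO and to 141 and 135 in WT. The part of these cells in the levels of members that they express was not tested.

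Few genes further along the pathway passed. Of 44 other genes of receptor signalling, from the scaffold Grb2 to calcineurin and the NFAT factors, 1 was lower and 0 were higher in DKO, with 4.85% and 9.92% of all genes as background (10 lower and 1 higher at an unadjusted p under 0.05, with 12.1% and 14.4% of all genes as background). The median difference was -0.090. Pstpip1, a cytoskeletal adaptor that is also expressed by myeloid cells, was at 10.61 and 10.55 in DKO and at 10.84 and 10.97 in WT. It fell by 0.32 on the log2 scale (SE 0.0819, adjusted p = 0.022 in limma). Without WT replicate 2 the difference was -0.26 and did not pass. The rest lay between -0.27 and 0.18, among them Ptprc, which encodes CD45, at -0.13.

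Of 14 genes that receptor signals induce in T cells, 1 was higher and 1 was lower in DKO, with 9.92% and 4.85% of all genes as background. Il2ra, the alpha chain of the interleukin 2 receptor, was at 11.52 and 11.53 in DKO and at 11.29 and 11.20 in WT, a rise of 0.28 (SE 0.0796, adjusted p = 0.0352 in limma). Dusp2, a phosphatase of MAP kinases, was at 11.31 and 11.66 in DKO and at 11.82 and 11.89 in WT, a fall of 0.37 on the log2 scale (difference -0.37, SE 0.108, adjusted p = 0.0437). At an unadjusted p under 0.05 in limma, 3 of the 14 were higher and 2 lower, against 14.4% and 12.1% of all genes. The early response genes Nr4a1 (-0.13) and Nr4a3 (0.037) did not pass, nor did Cd69 (-0.22). Closer to the threshold in limma were Tnfrsf9 (0.30, adjusted p = 0.0786) and Egr1 (0.31, adjusted p = 0.0805), while Egr2 differed by -0.23 (adjusted p = 0.183). Without WT replicate 1 or 2 neither Il2ra (adjusted p = 0.0994 and 0.339) nor Dusp2 (adjusted p = 0.0757 and 0.18) passed. Dusp2 did not pass without DKO replicate 1 either (-0.20, adjusted p = 0.187), and was at -0.54 without DKO replicate 2. Several of the 14 genes are also expressed by myeloid and stromal cells, whose lists differed as given above.

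The promoters of Trat1, the member that passed the test, and of Bcl11b and Cd3d, which came next by p among members with a sequence, are printed because the groups did not overlap for any of them. Each runs from 250 bases before to 50 bases after a RefSeq start (GRCm38.p6), on the strand of the gene. The windows are chr16:48772013-48772312 (minus strand), chr12:108003365-108003664 (minus strand) and chr9:44981536-44981835 (plus strand), in that order. For Trat1 and Bcl11b the RefSeq start differs from the gene start in the positions given above, which came from GENCODE. Capitals mark matches, on either strand, to the letters TGTGGT (RUNX factors), AGGAAG (ETS factors), CAGNTG (E proteins) and GTGAAAG (core of sites of Blimp-1).
Trat1: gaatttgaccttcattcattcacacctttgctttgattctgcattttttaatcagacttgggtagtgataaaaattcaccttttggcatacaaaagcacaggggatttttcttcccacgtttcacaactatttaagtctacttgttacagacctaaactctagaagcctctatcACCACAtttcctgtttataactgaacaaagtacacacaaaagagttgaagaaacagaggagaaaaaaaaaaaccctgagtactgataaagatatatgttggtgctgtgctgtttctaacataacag
Bcl11b: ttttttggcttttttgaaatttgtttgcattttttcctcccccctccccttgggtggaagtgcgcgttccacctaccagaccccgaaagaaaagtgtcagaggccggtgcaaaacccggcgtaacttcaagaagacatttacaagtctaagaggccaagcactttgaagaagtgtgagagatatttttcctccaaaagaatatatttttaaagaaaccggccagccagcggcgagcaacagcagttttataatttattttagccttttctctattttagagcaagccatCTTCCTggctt
Cd3d: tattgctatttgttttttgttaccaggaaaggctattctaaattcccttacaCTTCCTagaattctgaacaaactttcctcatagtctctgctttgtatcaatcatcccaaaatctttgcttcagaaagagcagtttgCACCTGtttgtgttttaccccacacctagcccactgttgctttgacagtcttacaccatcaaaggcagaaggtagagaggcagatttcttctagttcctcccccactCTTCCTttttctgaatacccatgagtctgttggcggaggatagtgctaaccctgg
The Trat1 window held 1 match, to the RUNX letters, the Bcl11b window 1 to the ETS letters, and the Cd3d window 2 to the ETS letters and 1 to the E protein letters. No 2 matches overlapped. Promoters were found for 20 of the 30 genes, in 26 windows, since some genes have several starts. The Blimp-1 core letters were in 0 of these 26 windows and in 4.24% of all 32851 promoter windows. The RUNX letters were in 6 of 26, against 16.8% of all windows, the E protein letters in 17, against 51.4%, and the ETS letters in 16, against 35.4%. These are matches of letters in windows of fixed length, and binding was not measured.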

How the data were processed

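Messenger RNA was sequenced from stranded libraries of 4 samples, per the labels' protocols. The authors deposited log2 values, in a table whose name gives them as rlog, and DESeq2, which makes such regularized values, is named in the submitters' processing notes. Named there too are the build GRCm38, STAR 2.5.4a, BWA 0.7.14-r1136, featureCounts of Subread 1.5.2, cutadapt 1.9.1 and bcl2fastq 2.17.1.14, with no roles or parameters. A further 2 columns of the table match no labelled sample and were not used, though they may have entered the authors' shrinkage. Depth per sample is unknown.

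Symbols, positions and exon lengths came from GENCODE for GRCm38 and were matched to 48058 identifiers. Groups came from the treatment label, and replicates were numbered in the order of the entries. Testing was limited to genes whose mean rlog reached 4 and was done in R 4.3.3 with limma 3.58.1, with group as the only term, a variance trend (8.9 prior beside 2 residual degrees of freedom), two-sided tests and Benjamini-Hochberg adjustment at 0.05. The fit was run on simulated data drawn from its own model, which cannot show how it behaves on shrunken rlog values. Python 3.11.15, pandas 2.3.3 and matplotlib 3.10.9 made tables and figures. All 30 members are named, with values in every sample for the receptor and CD3 chains, for members past the threshold and for the next 3 by p, and others chosen after their values were seen. Other listed genes are named where they passed or were chosen afterwards. The members and lists were chosen with earlier results of these data known. Some listed genes are not reported here by name.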

Additional observations from a re-analysis of the deposited data

How the results depend on the processing

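Calls among these genes were few and depended on the fit, in limma throughout. With no filter on low values, without the variance trend and with quantile normalization, 0 of the 30 genes were lower in DKO, against 1, and in fits without 1 sample 0 to 7 were lower and 0 to 1 higher. Of the 44 other pathway genes, 0 were lower with no filter, without the trend and with quantile normalization, 2 with robust variances, 3 with median centring, 2 with sample weights and 0 to 6 without 1 sample. Of the 14 induced genes, 0 were lower under the same first 3 settings and 0 to 1 without 1 sample. Higher were 0 with no filter and without the trend, 3 with quantile normalization and 0 to 3 without 1 sample. The cause was not tested. With no filter, 25 of all genes were lower and 181 higher, against 656 and 1342, over 25186 genes instead of 13528. The share of all genes that was lower also moved with the setting, from 4.85% in the main fit. It was 3.82% without the trend, 4.43% with quantile normalization, 5.46% with robust variances, 5.30% with median centring and 5.03% with sample weights. Of the 13528 genes, 1365 were higher without the trend and 1082 with quantile normalization, against 1342. Without DKO replicate 2, 1222 of all genes were lower. Without WT replicate 1 or 2, 421 or 324 were.

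Quantile normalization turned the sign of 8 small differences, none of them called, to 0.031 for Cd247, 0.019 for Cd4, 0.016 for Cd28, 0.088 for Icos, 0.036 for Cd6, 0.030 for Lck, 0.058 for Zap70 and 0.038 for Skap1. The median of the 30 was then -0.040, beside -0.036 over all genes, and 17 of the 30 were below 0. In fits without 1 sample, signs turned within ranges of -0.15 to 0.072 for Cd247, -0.17 to 0.031 for Icos, -0.13 to 0.071 for Cd6, -0.15 to 0.021 for Lck, -0.081 to 0.055 for Zap70, -0.22 to 0.025 for Sh2d1a, -0.0071 to 0.043 for Plcg1 and -0.026 to 0.063 for Ptpn22. Of 330 alternative values of the 30 genes, 300 kept their direction and their side of the threshold. That count is a weak measure of stability. Changes of filter, trend, robust variances and sample weights left each difference as it was, so direction could turn only in the other settings. Only Trat1 was called in the main fit, so for the rest the same side meant staying uncalled. No paired analysis was possible because the labels carry no replicate numbers. The 2 samples a group and the unknown depth limit the precision to the intervals given with each gene.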
